A study of Mus musculus with 16 samples.

Results

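Later proximal tubule (PT) cells were taken from single-cell RNA sequencing of kidneys from 16 mice, as the barcodes in which transporter RNAs of the S2 and S3 segments outnumbered those of the S1 segment. A barcode was kept if it held 200 to 7000 detected genes and at most 50% mitochondrial UMIs (unique molecular identifiers, the counted RNA molecules). A kept barcode was a later PT cell if it held at least 4 UMIs of 5 segment genes in all, more of Slc22a6, Slc5a8 and Slc7a13 than of Slc5a2 and Slc5a12, and 0 UMIs of Pecam1, Pdgfrb and Ptprc. This rule gave 7145 later PT cells of 94436 kept barcodes, out of 116439 barcodes in the files. Early PT cells, with more UMIs of Slc5a2 and Slc5a12 instead, numbered 6164. The cells were thus chosen by the levels of these 5 transporters, which are given as a description and without a test. In GRCm38, Slc22a6 lies at chr19:8618039-8628299 (plus strand), Slc5a8 at chr10:88885992-88929515 (plus), Slc7a13 at chr4:19818725-19842218 (plus) and Slc27a2 at chr2:126552407-126588243 (plus), where counts were taken over each gene as a whole.

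The proximal tubule reabsorbs most of the filtered glucose, amino acids, phosphate and bicarbonate in its S1 segment, and its S2 and S3 segments recover what is left, secrete organic anions and drugs into the urine, and burn fatty acids in abundant mitochondria and peroxisomes. Slc22a6 (OAT1) takes up organic anions from blood, Slc5a8 recovers lactate and other monocarboxylates, Slc7a13 recovers acidic amino acids and cystine in S3, and Slc27a2 imports and activates fatty acids. Slc5a2 (SGLT2) and Slc5a12, which mark S1, carry glucose and lactate. In mice the later segments are known to differ between the sexes, with genes that androgens maintain in males. PPAR alpha is the fatty-acid-sensing receptor that induces fatty acid oxidation, and NRF2 is the factor that induces detoxification enzymes under oxidative stress.

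The DN (diabetic nephropathy) mice were BTBR ob/ob, which lack leptin and become obese and diabetic, and the control mice were BTBR +/+, with male and female mice of both genotypes at 6 and 12 weeks of age and 2 mice (1 library each) per group. Both genotypes also carried a Gt(ROSA)26Sor tdTomato/EGFP reporter and a Cre driven by a podocyte promoter, so that all groups share these alleles. The study took 6 weeks as the onset and 12 weeks as the early stage of DN. The labels name the material as glomerular cells, and the PT segment was partially depleted on a Percoll gradient before dissociation, so the later PT cells are what remained after that depletion. The 4 female libraries numbered replicate 1 in their groups formed 1 set by shared cell barcodes and all other libraries formed another, which is called chemistry here. The word is only a name for these sets, since the kit version of each library is not given in the sources used here. The 6 pairs within the smaller set shared 23 to 55 barcodes, the 66 pairs within the larger set 7 to 32, and the 48 mixed pairs 0 to 3. All male libraries fell in the larger set.

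The detection of 3 of the 4 markers only restates the rule that chose the cells: Slc22a6 was detected in 92.0% of the later PT cells, Slc5a8 in 89.8% and Slc7a13 in 54.2%. Slc7a13 was in 0 to 2.63% of the later PT cells of the control female libraries. Slc27a2, the marker that the rule did not use, was in 99.4%, and it was nearly as frequent in early PT cells, so its detection does not separate the segments. In early PT cells the 4 shares were 63.7%, 13.0%, 3.26% and 93.9%. In 10841 endothelial barcodes, which should lack these genes, they were 4.26%, 1.80%, 1.31% and 9.68%. By library the endothelial shares ran from 0.595 to 17.0%, 0.191 to 8.68%, 0 to 9.65% and 1.39 to 30.9%. Each was highest in control male 6 weeks replicate 2. These barcodes were chosen to hold at least 4 UMIs of Emcn, Kdr and Flt1 together and fewer than 4 of the 5 segment genes. The low shares of the rule's genes there are thus partly set by that choice. Median depth per cell lay between 4128 and 18934 UMIs over libraries in later PT cells, 3000.5 and 17731 in early PT cells and 1755 and 8343.5 in the endothelial barcodes, so the lower shares in endothelial barcodes are also shares at lower depth. Just inside the threshold, 397 members held 4 UMIs of the 5 genes, and 643 barcodes with 3 were just outside. The margin of later over early UMIs was 1 in 128 members, while 197 barcodes were tied and in 177 the early genes led by 1.

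Which transporter led differed between the groups. Slc7a13 had the most UMIs of the 3 later transporters in 20.5 to 34.5% of the later PT cells of control males and 11.1 to 18.3% of those of DN males, but in at most 0.98% in control females and 16.7% in DN females. Slc5a8 led in 11.9 to 17.1% of cells in control females, 22.2 to 57.2% in DN females, 1.34 to 6.29% in control males and 3.01 to 8.53% in DN males. Slc22a6 led in most cells of control females (median 74.4%), control males (64.7%) and DN males (75.9%), and in a median of 46.3% in DN females. In control males 83.2 to 87.3% of the cells held UMIs of both Slc22a6 and Slc7a13, against 22.2 to 61.9% in DN males. Since these genes chose the cells, the shift in their balance is a description. Counts of called genes are therefore also given within the Slc22a6-led cells alone where they differ. These are the 4465 cells with more UMIs of Slc22a6 than of Slc5a8 and Slc7a13 together, a narrower set than the cells counted above as led by Slc22a6.

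**Figure D1:**
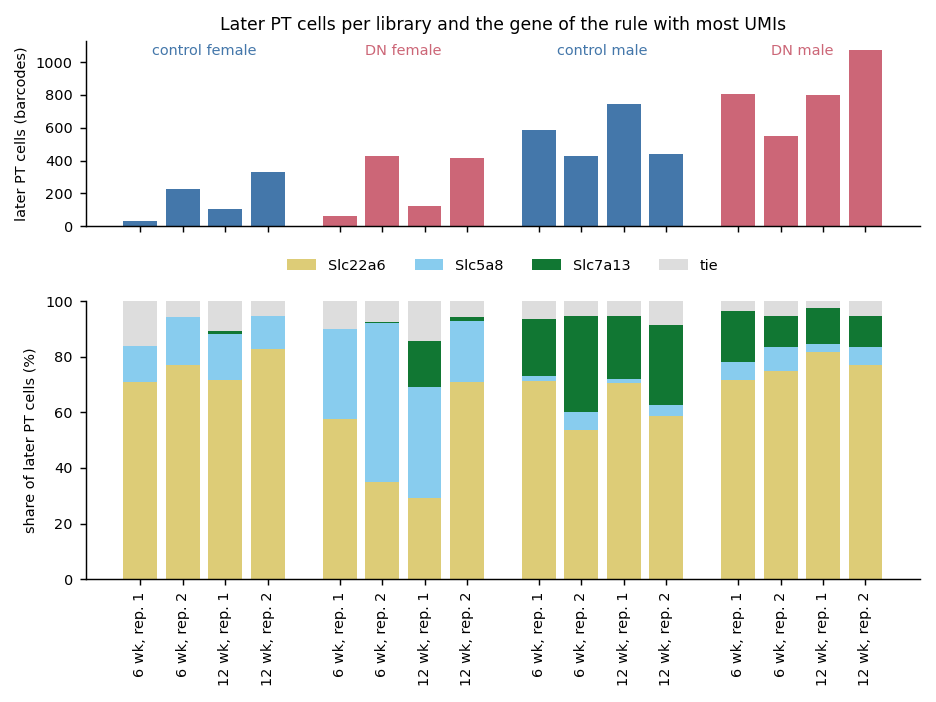
Later PT cells per library (upper panel, number of barcodes, blue for control and red for DN) and the share of them in which each of the 3 later transporters had the most UMIs (lower panel, %, grey for ties), for the 4 libraries of each genotype and sex. The number ran from 31 in control female 6 weeks replicate 1 to 1077 in DN male 12 weeks replicate 2, and Slc7a13-led cells were found in all males, in DN female 12 weeks replicate 1 (16.7%) and at low shares in some other females.

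Library totals ran from 10510855 to 125551519 UMIs, and the later PT cells of a library held 155849 to 18951161 UMIs in all. The replicate 1 females held the fewest, with 31, 102, 59 and 120 cells. Mitochondrial RNA made up 20.5 to 30.4% of the summed UMIs, with medians of 25.8% in control females, 22.7% in control males, 23.3% in DN females and 23.0% in DN males. Marker RNA of other cells was lower than in the other kept barcodes, but that of collecting duct cells was not near 0. CPM are UMI counts relative to the effective total of the cells' summed UMIs, except in these marker sums, which are relative to the raw total. The summed level of the listed podocyte markers had a median of 5.70 CPM in later PT cells against 208.5 in the other kept barcodes. That of the endothelial markers was 6.60 against 692.2 (with Pecam1 at 0 by the rule) and that of the thick limb markers 62.7 against 1302. For principal cells it was 241.8 (up to 637.1) against 3837, for intercalated cells 131.6 (up to 424.6) against 2225, and for immune cells 32.3 against 228.9, with Ptprc at 0 by the rule and up to 248.1 in control female 12 weeks replicate 1, nearly all of it Cd74. The descending thin limb list (Fst, Sptssb and Cryab) summed to 20.0 to 147.6 CPM in control females and 18.4 to 90.8 in control males. In DN females it summed to 219.4 to 1132 and in DN males to 32.4 to 675.2. Its median was 119.2 CPM against 422.1 in the other kept barcodes, a level that the highest DN female and DN male libraries exceeded. Most of this list's RNA was Cryab, a small heat shock protein. Cryab did not pass the test of DN against control at 6 weeks (log2 difference 3.47 ± 0.82, adjusted p = 0.0534). Its DN effect at 6 weeks was, however, called different between later and early PT cells, the comparison given further below. Umod, the thick limb protein uromodulin, was lower in DN males (-1.40 ± 0.34, adjusted p = 0.0258), a call that was lost when any 1 of 4 libraries was left out, control male 6 weeks replicate 1 among them (adjusted p = 0.097). Of the 7145 later PT cells, 2857 held 0 UMIs of Slc12a1, Slc12a3, Aqp2 and Atp6v1g3, which mark other tubule segments. Such cells numbered 43 of 329 in control female 12 weeks replicate 2 and 45 of 59 in DN female 6 weeks replicate 1. The source of the other segments' RNA was not tested. Nor was the part of thick and thin limb RNA in the results below.

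Against early PT cells of the same libraries, later PT cells carried more Napsa, Hpd and Cd36 RNA and less Slc6a19, Gatm and Slc7a7 RNA, and amino acid transporters lay on both sides. This is a description, since the rule split the cells, and its genes outside the lists were picked after their values were seen. Of 2547 genes whose mean over both cell types was at least 50 CPM, 480 were higher and 188 lower in later PT cells in all 16 libraries. Napsa, an aspartic protease, averaged 2271 CPM in later against 120.4 CPM in early PT cells, a ratio of 18.9. The ratio was 8.11 for Hpd, which breaks down tyrosine, 7.65 for the fatty acid receptor Cd36, 9.26 for the neutral amino acid transporter Slc6a18 and 2.94 for Slc27a2. Early PT cells were higher by a ratio of 6.03 for the neutral amino acid transporter Slc6a19, 5.37 for Gatm, which makes the creatine precursor, 4.37 for Slc7a7, which exports basic amino acids, and 1.44 for the phosphate transporter Slc34a1. Of the rule's own genes, Slc5a8 was 20.7 times and Slc22a6 3.59 times higher in later cells, and Slc5a2 was 19.7 times and Slc5a12 19.3 times lower.

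The share of later PT cells among the kept barcodes did not pass the exact permutation test over all 16 libraries or at either age. In DN males it was larger than in control males at the depth of the files. That difference did not pass the test at matched depth, where membership also followed the level of the rule's own genes. The share was 8.69, 4.39, 9.50 and 5.71% in the 4 control males and 9.83, 11.2, 13.4 and 21.1% in the 4 DN males. It averaged 7.07% ± 2.42 (SD, n = 4) in control and 13.9% ± 5.03 in DN males, without overlap (exact two-sided permutation p = 0.0286, the smallest that 4 against 4 allows), while with the 4 male pairs as blocks the exact sign-flip permutation p was 0.125, the smallest that 4 pairs allow. Of the 9779 kept barcodes of control male 6 weeks replicate 2, 6221 held under 1000 UMIs. Over barcodes of at least 1000 UMIs the shares were 10.1, 11.6, 10.1 and 6.54% in control and 10.6, 12.4, 14.2 and 23.2% in DN males, which overlapped (means 9.58% ± 2.15 and 15.1% ± 5.57, exact permutation p = 0.0571). With each of these barcodes thinned to 1000 UMIs, where few barcodes still met the rule, they were 0.934, 2.02, 1.21 and 0.822% in control and 0.461, 1.51, 0.979 and 2.49% in DN males (means 1.25% ± 0.542 and 1.36% ± 0.869, exact permutation p = 0.857). In females it averaged 3.12% ± 1.75 and 5.26% ± 3.84 and overlapped (exact permutation p = 0.343). Over both sexes the lowest, median and highest share were 1.06, 4.77 and 9.50% in the 8 control mice and 1.66, 9.45 and 21.1% in the 8 DN mice, with means of 5.10% ± 2.88 and 9.58% ± 6.20, which did not pass the exact permutation test (p = 0.0788). At 6 weeks the means were 4.47% in control and 7.69% in DN mice, with overlap (exact permutation p = 0.314). At 12 weeks they were 5.72% and 11.5%, again with overlap (exact permutation p = 0.257). Over both ages the DN mouse was higher in 7 of 8 pairs of the same age, sex and replicate number. With the pairs as blocks the exact sign-flip permutation p was 0.0156. Within the 12 libraries of the larger chemistry set the means were 6.20% and 12.1% (exact permutation p = 0.0130, n = 6). Thinned, the difference over all 16 libraries was 0.105 percentage points (exact permutation p = 0.797). Since PT tissue was depleted on the gradient, a change in the kidney and a change in what the gradient left cannot be told apart. Early PT cells made up 7.13, 2.52, 5.50 and 4.06% of the kept barcodes in control males. In DN males they made up 10.9, 9.25, 9.99 and 13.0%, also without overlap, a difference that was not tested. Among early and later PT cells together, the later cells made up 49.3% ± 13.1 in control and 51.0% ± 6.97 in DN. This difference did not pass the test (exact permutation p = 0.745). In females the means were 38.5% and 46.7% (exact permutation p = 0.143) and in males 60.1% and 55.4% (exact permutation p = 0.229). Thinned, they were 62.8% ± 4.29 in control and 43.0% ± 14.7 in DN males, without overlap (exact permutation p = 0.0286, exact sign-flip permutation p = 0.125). A thinned barcode met the rule only if enough UMIs of the rule's own genes were left. Before thinning, Slc7a13 was detected in 87.2 to 91.8% of control male and 38.4 to 65.7% of DN male later PT cells. The tests on thinned barcodes therefore cannot tell a share of cells apart from the level of these genes. Thinned females stood at 11.9% and 19.1% (exact permutation p = 0.371).

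The expression of later PT cells differed most widely between female and male mice. Of 12538 genes tested on the summed counts of each library with edgeR's quasi-likelihood test, 2688 (21.4%) were called between the sexes, that is had an adjusted p under 0.05, 1171 higher (9.34%) and 1517 lower (12.1%) in females. With the replicate pairs as blocks 1376 were called, and 3050 within the 12 larger libraries. All 10 sex-linked genes of a list passed in the direction of the labelled sex. All 14 tested genes of a list of male-high PT genes were lower in females, with a median log2 difference of -3.27 beside 0.04 over all genes. Of 11 female-high genes 8 were higher and 2 lower in females (median 2.66), the lower ones being Cyp2a4 and Fmo5. Since all males were of 1 chemistry set, the chemistry term rests on the females alone. Markers of other cells moved with sex as well: the thick limb genes Umod and Slc12a1 were both higher in females (1.46 ± 0.28 and 1.88 ± 0.45), Ren1, of renin cells, was higher, and the endothelial genes Emcn and Flt1 and the red cell gene Hbb-bs were lower, while none of the 8 tested distal convoluted, principal and intercalated cell genes passed. Their part in the sex difference was not tested.

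The male-high genes differed by wide margins. Levels are given as CPM in the order replicates 1 and 2 at 6 weeks, then replicates 1 and 2 at 12 weeks, here and below. Kap, an androgen-regulated kidney protein, stood at 106313, 46047, 86316 and 63519 CPM in control males and 1058, 4656, 2873 and 1222 CPM in control females. The control groups did not overlap, and over both genotypes females were lower by 4.30 on the log2 scale (SE 0.60, adjusted p = 1.88e-04). Slc22a30, an organic anion carrier, stood at 349, 368, 252 and 290.0 CPM in control males and 18.3, 7.44, 40.8 and 10.7 CPM in control females, again without overlap (-4.40 ± 0.45 over both genotypes, adjusted p = 1.13e-05). Cyp2j13 was at 0 in all 8 female libraries and at 141 to 185 CPM in control males. Higher in females were Slc22a29, another organic anion carrier, at 21.3 to 61.2 CPM in control females and no more than 0.210 CPM in control males (adjusted p = 8.34e-06), and Bbox1 (3.02 ± 0.30, adjusted p = 8.18e-06), which completes carnitine synthesis, although Bbox1 did not exceed 19.9 CPM in any library. Slc22a genes are close paralogs, so reads may be split between them.

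Transporters and metabolic enzymes were also counted by list, beside 9.34% of all genes called higher and 12.1% called lower in females. Of 18 amino acid transporters 9 were higher in females and 0 lower (median 0.59), among them Slc6a18 (1.32 ± 0.21, adjusted p = 4.43e-04) and the cystine transporter subunit Slc3a1 (0.58 ± 0.17, adjusted p = 0.0249). The call of Slc3a1 was lost without control female 6 weeks replicate 2 (adjusted p = 0.162). Of 27 organic ion transporters 9 were higher and 7 lower, and 5 and 5 without control female 6 weeks replicate 2. Of 43 genes of fatty acid oxidation and PPAR alpha targets 16 were higher and 2 lower (median 0.26), with 8 higher without control female 12 weeks replicate 2. Of 31 peroxisomal genes 4 were higher and 9 lower (median -0.15), with 2 higher without control female 6 weeks replicate 2. The peroxisomal genes called higher were near the share over all genes. The sex difference was also counted within each genotype: 1951 genes (15.6%) in control mice, with 6.57% of all genes higher and 8.99% lower in females, and 364 (2.9%) in DN mice, with 0.909% higher and 1.99% lower. In control mice all 14 male-high genes were lower in females and in DN mice 12 of 14, with medians of -3.71 and -2.32, and in DN mice 5 without DN female 12 weeks replicate 2. Whether the sex difference itself changed with genotype is the same question as whether the DN effect differed between the sexes, which was tested next.

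The DN effect differed between the sexes, and Cyp4a14, an enzyme of fatty acid oxidation, had the lowest p. Of 12538 genes 94 (0.75%) had a different DN effect in females and males, 37 with a higher (0.295%) and 57 with a lower (0.455%) log2 change in females. With replicate pairs as blocks 177 were called, and 31 within the 12 larger libraries, where only 2 females per genotype remain. Without control female 6 weeks replicate 2, which held 228 cells against 31 in the other library of its group, 47 were called. Kynu, Prom1 and Bhmt were also among the genes with the lowest p, all with a lower change in females. Of the 43 genes of fatty acid oxidation and PPAR alpha targets 9 had a lower change in females and 0 a higher one (median -0.26 beside 0 over all genes, and 4 to 8 lower with 1 library left out). Because the control males enter both this test and the sex comparison, the levels of all 4 groups are given side by side below.

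Cyp4a14 (chr4:115486200-115496142, minus strand), which oxidises the end of fatty acid chains, was nearly missing in control males, at 1.51, 1.58, 1.39 and 1.03 CPM, and stood at 342, 247, 128 and 143 CPM in DN males. In females it was at 673, 776, 689 and 543 CPM in control and 529.8, 1026, 438 and 679 CPM in DN mice. The male groups did not overlap, the female groups did, and every DN male stayed below every female. The log2 change was 7.19 ± 0.27 in males (adjusted p = 1.02e-10) and -0.05 ± 0.20 in females (adjusted p = 1), with a difference of -7.24 ± 0.33 (adjusted p = 1.99e-09).

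Cyp4a10, which catalyses the same reaction and belongs to the same gene family, was at 59.4, 50.1, 65.0 and 30.4 CPM in control males and 397, 339, 266 and 275 CPM in DN males. In females it was at 776, 540.0, 843 and 605 CPM in control and 686, 873, 745 and 601 CPM in DN mice. Again the male groups did not overlap, the female groups did, and every DN male stayed below every female. The log2 change was 2.62 ± 0.21 in males (adjusted p = 2.67e-06) and 0.10 ± 0.21 in females (adjusted p = 0.999), with a difference of -2.52 ± 0.29 (adjusted p = 2.72e-04). Cyp4a genes are close paralogs that may share reads.

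Hacl1 and Prlr showed the same arrangement of groups, with DN males between control males and control females. Hacl1, a peroxisomal lyase that shortens branched and hydroxylated fatty acids, was at 6.65, 8.93, 7.71 and 6.32 CPM in control males and 39.2, 36.0, 31.0 and 31.3 CPM in DN males. In females it ran from 84.0 to 141 CPM in control and 65.3 to 116 CPM in DN mice, so DN males lay above all control males and below all females (change in males 2.20 ± 0.17, adjusted p = 9.77e-07; difference -2.31 ± 0.24, adjusted p = 7.70e-05). Its gene overlaps Btd on the opposite strand, and whether the counting used strand is not given in the sources used here. Prlr, the prolactin receptor, was at 1.51, 2.94, 5.66 and 2.96 CPM in control males and 325, 86.4, 68.2 and 35.7 CPM in DN males, against 330.2 to 572 CPM in control females. The high value is DN male 6 weeks replicate 1, and the other 3 DN males also exceeded all control males (change 4.95 ± 0.58, adjusted p = 5.70e-05). Kynu, which degrades kynurenine, rose by 3.95 ± 0.27 and Bhmt, which remethylates homocysteine, by 4.46 ± 0.31, both in males (adjusted p = 3.24e-07 for each).

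Some genes of the male pattern fell in DN males. Odc1, the entry enzyme of polyamine synthesis, stood at 1141, 1195, 606 and 877 CPM in control males and 116, 219, 208 and 212 CPM in DN males. In control females it ran from 85.6 to 152 CPM, a range that the lowest DN male reached. The fall of 2.31 on the log2 scale (SE 0.23, adjusted p = 1.87e-05) differed from that in females (difference 2.01 ± 0.34, adjusted p = 0.00764). Acsm3, a mitochondrial medium-chain acyl-CoA synthetase, stood at 516, 405, 316 and 391 CPM in control males and 15.2, 81.9, 68.3 and 98.6 CPM in DN males, without overlap, and at no more than 14.4 CPM in any female (change in males -2.66 ± 0.39, adjusted p = 5.46e-04). In all 6 of 14 male-high genes fell in DN males and 1, Cyp2d9, rose (median -1.15 beside 0.01 over all genes). Over all genes 1.74% fell and 2.38% rose in DN males. Of 11 female-high genes 4 rose (Slc7a12, Cyp4a14, Cyp4a10 and Prlr) and 1, Fmo5, fell (median 1.65, and 0.40 within the Slc22a6-led cells, where the change of Slc7a12 turned to -1.67). Kap, at 14256, 18382, 39134 and 29679 CPM in DN males, did not pass (-1.67 ± 0.51, adjusted p = 0.0848). Nor did Slco1a1, where DN male 6 weeks replicate 1 stood far below the other 3 (1.72, 161, 138 and 277 CPM, against 599 to 753 CPM in control males, adjusted p = 0.0716).

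**Figure D2:**
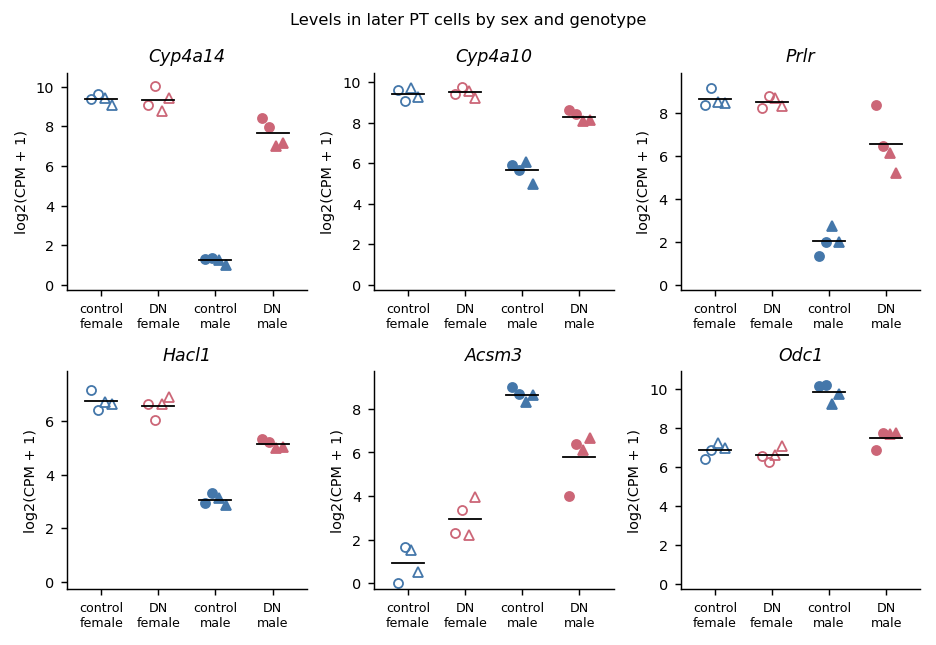
Levels of 6 genes in later PT cells, as log2(CPM + 1) of the summed counts, 1 point per library (open for females, filled for males, circles for 6 weeks, triangles for 12 weeks, blue for control, red for DN) with the mean of each group as a line. For Cyp4a14, Cyp4a10, Hacl1 and Prlr the DN males lay above the control males, and for Acsm3 and Odc1 below them, while DN and control females overlapped for Cyp4a14, Cyp4a10, Hacl1, Prlr and Odc1.

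In DN males 517 of 12538 genes (4.12%) changed, 299 higher (2.38%) and 218 lower (1.74%) than in control males, and 859 with replicate pairs as blocks. Of 43 genes of fatty acid oxidation and PPAR alpha targets, the list with the most genes called higher, 19 rose and 1, Cyp4a12a, fell, with a median of 0.51 beside 0.01 over all genes. Between 12 and 20 rose when each library was left out in turn, and 19 rose within the Slc22a6-led cells alone. The list covers mitochondrial beta-oxidation, where Acaa2, the last step of the cycle, stood at 98.4, 125, 150.2 and 133 CPM in control and 343, 377, 418 and 385 CPM in DN males (1.59 ± 0.22, adjusted p = 3.15e-04). The groups did not overlap, and control females stood at 335 to 452 CPM. Hadha, the subunit of the trifunctional protein, and Cpt2, the inner carnitine palmitoyltransferase, rose less (0.46 ± 0.11 and 0.63 ± 0.14, adjusted p = 0.0218 and 0.0133). Among the thioesterases that release free fatty acids, Acot1 rose by 1.56 ± 0.19 (adjusted p = 7.71e-05) and Acot3 by 1.37 ± 0.16 (adjusted p = 6.65e-05), although these paralogs may share reads. The lipid droplet coat protein Plin2 rose by 1.23 ± 0.17 (adjusted p = 3.85e-04), the pantetheinase Vnn1 by 1.28 ± 0.15 (adjusted p = 5.04e-05) and the lipase inhibitor Angptl4 by 1.27 ± 0.28 (adjusted p = 0.0141). Cyp4a12a, a male-type omega-hydroxylase, went from 277, 219.8, 225 and 239 CPM to 3.93, 21.0, 48.5 and 103 CPM. Leaving out single libraries ended the calls of Hadha (adjusted p = 0.098) and Angptl4 (adjusted p = 0.0536) without control male 6 weeks replicate 2, and of Cpt2 (adjusted p = 0.0682) without control male 12 weeks replicate 2, naming for each the library with the highest p.

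**Figure D3:**
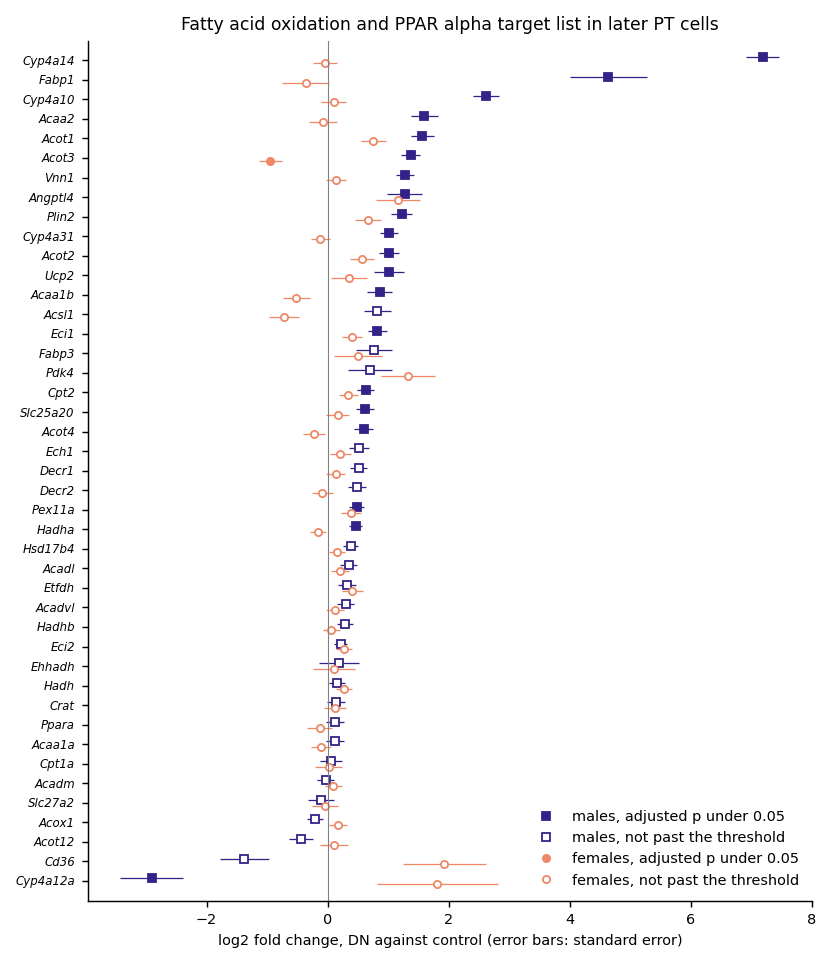
Log2 fold change of DN against control mice for the 43 tested genes of fatty acid oxidation and PPAR alpha targets in later PT cells, in males (squares) and females (circles), filled where the adjusted p was under 0.05, with standard errors as bars. In males 19 genes passed above 0 and 1 below, and in females 0 passed above 0 and 1, Acot3, below.

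Detoxification genes were the list with the next most genes called higher in DN males, by number and not by share of the list. Of 35 NRF2 targets 11 rose and 0 fell (median 0.37 beside 0.01). Over all genes 2.38% rose and 1.74% fell. The lists differ in size, and some genes stand on more than 1 list, Cyp4a10 among them. Gsta2, a glutathione transferase, stood at 33.1, 83.3, 69.3 and 55.6 CPM in control and 1075, 704, 651 and 368 CPM in DN males (3.48 ± 0.33, adjusted p = 1.00e-05), with control females at 654 to 2185 CPM. Its paralog Gsta1 may share its reads. Abcc4, an export pump for organic anions, rose by 3.87 ± 0.34 (adjusted p = 5.34e-06), Mgst1 by 2.23 ± 0.25 (adjusted p = 5.01e-05) and the carbonyl reductase Cbr1 by 1.89 ± 0.25 (adjusted p = 1.85e-04). Gsta2, Abcc4, Mgst1 and Cbr1 also had a lower change in females, by tested differences of -3.45 ± 0.44, -3.27 ± 0.49, -1.85 ± 0.36 and -2.17 ± 0.35. The quinone reductase Nqo1 rose by 1.60 ± 0.30 in males (adjusted p = 0.00456) and stood at 1.59 ± 0.37 in females (adjusted p = 0.0548), with a difference of -0.01 ± 0.47 between the sexes that did not pass (adjusted p = 1).

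Transport genes rose in DN males more often than they fell, beside 2.38% of all genes that rose and 1.74% that fell. Of 12 sugar and monocarboxylate transporters 4 rose and 0 fell (median 0.63), including Slc5a1 (SGLT1), the glucose carrier of the later segments, at 31.7, 18.4, 27.6 and 20.2 CPM in control and 55.7, 38.1, 50.4 and 49.8 CPM in DN males (0.98 ± 0.20, adjusted p = 0.00678). Its groups did not overlap. Of 18 amino acid transporters 6 rose and 0 fell (median 0.49). Among them were the basolateral exchangers Slc7a7 (0.92 ± 0.20, adjusted p = 0.0131) and Slc7a8 (1.24 ± 0.20, adjusted p = 0.00119) and their shared heavy chain Slc3a2 (0.68 ± 0.16, adjusted p = 0.0228). Of 27 organic ion transporters 6 rose, with the pumps Abcc2, Abcc4 and Abcb1b among them, and 1, Slc22a7 (OAT2), fell from 74.4, 38.9, 65.9 and 26.6 CPM to 2.13, 0.662, 5.59 and 1.89 CPM (-4.35 ± 0.45, adjusted p = 2.64e-05). Pck1, which commits carbon to glucose synthesis, went from 1118, 1056, 965 and 985 CPM to 2208, 1963, 1655 and 1972 CPM (0.92 ± 0.24, adjusted p = 0.0348), with control females at 2767 to 4049.6 CPM. Of 8 genes of the renin-angiotensin system and natriuretic peptidases Agt rose and Ace and Mas1 fell, Ace by 1.14 (SE 0.21, adjusted p = 0.00297). Single libraries, left out, ended the calls of Slc3a2 (adjusted p = 0.101) and Pck1 (adjusted p = 0.0985) without control male 6 weeks replicate 2, and of Slc7a7 (adjusted p = 0.068) without control male 12 weeks replicate 2.

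In DN females 104 genes (0.829%) changed, 72 higher (0.574%) and 32 lower (0.255%) than in control females, and 203 with replicate pairs as blocks. This count varied widely: 8 were called without control female 6 weeks replicate 2, 21 within the 12 larger libraries and 12 with at most 20% mitochondrial UMIs per barcode. Of the 43 fatty acid and PPAR alpha genes 0 rose and 1, Acot3, fell (median 0.13 beside 0.01). Crot, the peroxisomal carnitine octanoyltransferase, went from 67.3, 108, 104 and 115 CPM to 195, 312, 242 and 167 CPM in females (1.15 ± 0.20, adjusted p = 0.0108), while its change in males was -0.07 ± 0.18 (adjusted p = 0.933; difference 1.23 ± 0.27, adjusted p = 0.0439). Agps, which begins ether lipid synthesis in peroxisomes, moved in opposite directions, by 1.19 ± 0.23 in females and -1.20 ± 0.18 in males (adjusted p = 0.0197 and 5.44e-04). Its levels were 24.5, 35.4, 31.5 and 24.9 CPM in control females and 58.4, 111, 65.9 and 41.8 CPM in DN females, against 207, 181, 176 and 174 CPM in control males and 66.3, 77.8, 83.6 and 94.3 CPM in DN males. The groups did not overlap in either sex, and all 8 DN mice lay between the control females and the control males. Ugdh, which makes glucuronic acid for conjugation, rose in females by 1.82 ± 0.32 (adjusted p = 0.0108) and the taurine transporter Slc6a6 by 1.24 ± 0.28 (adjusted p = 0.0444). The organic anion carriers Slc22a19 and Slc22a29 fell by 1.79 and 1.64 in females (adjusted p = 0.0114 and 0.0257). Each call in females given here with its size, and the sex difference of Crot, ended when some single library was left out, at the highest p those of Crot (adjusted p = 0.131), Crot between the sexes (adjusted p = 0.217), Agps (adjusted p = 0.278), Ugdh (adjusted p = 0.199) and Slc6a6 (adjusted p = 0.482) without DN female 6 weeks replicate 2, Slc22a19 (adjusted p = 0.161) without control female 6 weeks replicate 2, and of Slc22a29 (adjusted p = 0.253) without control female 12 weeks replicate 2.

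Cytochrome P450 genes changed in both directions in DN males. Over all genes 2.38% rose and 1.74% fell in DN males, and 0.574% rose in DN females. Of 20 cytochrome P450 genes 7 rose and 4 fell in DN males and 2 rose in DN females, and Cyp2d9, a steroid and drug hydroxylase, rose in both (1.83 ± 0.32 and 3.03 ± 0.49, adjusted p = 0.00251 and 0.00704). Of 31 peroxisomal genes 5 rose and 2 fell in males, with 3 higher without control male 6 weeks replicate 2, and 2 rose in females. Without control female 6 weeks replicate 2, 0 genes of the cytochrome P450, peroxisomal and tubule injury lists rose in DN females. Of 20 tubule injury genes 4 rose in males (Cdkn1a, Spp1, C3 and Gdf15) and 3 in females (the same without Spp1). Spp1, osteopontin, stood at 119, 309, 243 and 183 CPM in control and 1197, 430.1, 966 and 326 CPM in DN males (1.76 ± 0.38, adjusted p = 0.012), with control females at 1006 to 2319 CPM. Every DN male lay above every control male. Of the 11 genes listed for the S2 and S3 segments beside those of the rule, Cyp4a10 and Slc5a10 rose and Acsm3 and Slc22a7 fell in males.

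With both sexes fitted together, DN changed 145 genes (1.16%) at 6 weeks, 82 higher (0.654%) and 63 lower (0.502%), and 60 genes (0.479%) at 12 weeks, 39 higher (0.311%) and 21 lower (0.167%). The genes called at both ages numbered 34, which is 23.4% of the calls at 6 weeks and 56.7% of those at 12 weeks, 25 higher and 9 lower in DN mice at both. They included a fructose and a glutamine transporter, complement C3, the cell cycle inhibitor Cdkn1a and angiotensinogen on the higher side, and lipoprotein lipase and carnosinase on the lower. With replicate pairs as blocks 180 and 130 genes were called. With 1 library left out, the calls at 6 weeks ranged from 40, where DN male 6 weeks replicate 1 was the library omitted, to 148. Those at 12 weeks ranged from 22, omitting control male 12 weeks replicate 2, to 187, omitting control male 6 weeks replicate 1. Levels at 1 age are given below in the order female replicates 1 and 2, then male replicates 1 and 2.

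Among transporters, Slc2a5 (GLUT5), the fructose carrier, had the lowest p of the higher genes at 6 weeks. It stood at 18.3, 22.9, 10.3 and 15.0 CPM in control and 93.5, 83.3, 61.5 and 43.6 CPM in DN mice at 6 weeks, and at 51.9, 35.1, 20.5 and 15.0 CPM and 97.1, 76.2, 60.5 and 53.6 CPM at 12 weeks. The groups did not overlap at either age (2.00 ± 0.20 and 1.40 ± 0.19, adjusted p = 1.99e-04 and 0.00319). Slc38a3 (SNAT3), which takes up glutamine from blood, was at 12.2, 8.77, 2.82 and 10.1 CPM in control and 85.7, 53.4, 30.3 and 28.9 CPM in DN mice at 6 weeks. At 12 weeks it was at 14.8, 15.8, 2.79 and 3.74 CPM and 44.0, 44.6, 17.4 and 18.7 CPM, again without overlap (2.38 ± 0.32 and 2.01 ± 0.31, adjusted p = 0.00348 and 0.0063). Slc5a10 (SGLT5), a mannose and fructose carrier, rose by 1.07 ± 0.22 and 1.23 ± 0.22 (adjusted p = 0.0301 and 0.014), and Slco4c1, which takes up organic anions and thyroid hormone, by 2.83 ± 0.45 and 2.17 ± 0.45 (adjusted p = 0.00593 and 0.0437). In all, 2 of 12 sugar and monocarboxylate transporters rose at each age, 2 of 18 amino acid transporters at 6 weeks and 1 at 12 weeks, with medians of 0.28 and 0.55 and of 0.42 and 0.39 beside 0.01 over all genes. Single libraries, left out, ended the calls of Slc5a10 at 6 weeks (adjusted p = 0.105) without DN male 6 weeks replicate 1, Slc5a10 at 12 weeks (adjusted p = 0.0893) without control male 12 weeks replicate 2, and of Slco4c1 at 12 weeks (adjusted p = 0.181) without control female 12 weeks replicate 2.

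Some injury and stress genes rose in DN mice. Of 20 tubule injury genes 2 rose at 6 weeks (Cdkn1a and C3) and 3 at 12 weeks (these and Gdf15), with medians of 0.30 and 0.05 beside 0.01. Of all genes tested 0.654% were called higher at 6 weeks and 0.311% at 12 weeks. The list as a whole was not tested. Cdkn1a, the p21 inhibitor of the cell cycle, was at 18.3, 17.5, 17.4 and 4.63 CPM in control and 70.1, 114, 31.7 and 53.7 CPM in DN mice at 6 weeks. At 12 weeks it was at 1.85, 2.03, 5.25 and 5.28 CPM and 36.6, 45.8, 28.2 and 58.3 CPM, and the groups did not overlap at either age (2.17 ± 0.38 and 3.44 ± 0.42, adjusted p = 0.0106 and 0.00182). Ccng1, Phlda3 and Plk2, which like Cdkn1a are known targets of p53 and were picked after their values were seen, were also among the 34 shared genes, at 1.10 ± 0.18, 2.57 ± 0.41 and 2.28 ± 0.37 at 12 weeks (adjusted p = 0.00799 for each). C3, the central complement protein, was at 0, 5.85, 8.26 and 5.36 CPM in control and 3.90, 65.6, 30.1 and 49.1 CPM in DN mice at 6 weeks, where DN female replicate 1, with 59 cells, lay among the controls. At 12 weeks it was at 18.5, 4.49, 4.02 and 4.90 CPM and 44.0, 75.8, 51.1 and 63.3 CPM without overlap (2.75 ± 0.39 and 3.58 ± 0.40, adjusted p = 0.00417 and 0.00158). Gdf15, a stress-induced cytokine, rose by 1.91 ± 0.33 at 12 weeks (adjusted p = 0.0122), a call lost without control female 12 weeks replicate 2 (adjusted p = 0.0801). The injury markers Havcr1 (KIM-1) and Lcn2 did not pass at either age, and Havcr1 did not exceed 13.0 CPM in any library.

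Agt, the precursor of angiotensin, was at 0, 25, 18.1 and 14.3 CPM in control and 50.6, 158, 74.4 and 42.5 CPM in DN mice at 6 weeks. At 12 weeks it was at 5.56, 11.9, 14.8 and 8.89 CPM and 84.2, 48.6, 65.7 and 36.5 CPM, without overlap at either age (2.10 ± 0.35 and 2.29 ± 0.36, adjusted p = 0.00823 and 0.00788). Sulf2, which trims heparan sulfate outside the cell, rose by 2.43 ± 0.36 and 3.26 ± 0.39 (adjusted p = 0.00508 and 0.0018), and Mgmt, which repairs alkylated DNA, by 1.99 ± 0.23 and 1.63 ± 0.21 (adjusted p = 7.62e-04 and 0.00266). Gc, the vitamin D binding protein, stood at 0, 2.39, 0 and 0 CPM in control and 74.0, 221, 84.4 and 9.37 CPM in DN mice at 6 weeks and at 0, 4.20, 0.246 and 0 CPM and 249, 70, 17.3 and 2.58 CPM at 12 weeks. It was near 0 in the control libraries, so no fold is given (adjusted p = 0.00508 and 0.0228). Cyp27b1, which activates vitamin D, rose at 6 weeks (2.69 ± 0.42, adjusted p = 0.00591) and stood at 1.61 ± 0.38 at 12 weeks (adjusted p = 0.0746). The call of Agt at 12 weeks was lost without control female 12 weeks replicate 2 (adjusted p = 0.0527).

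Metabolic genes passed at either age in small numbers. Of 35 NRF2 targets 4 rose at 6 weeks (Nqo1, Gsta1, Gsta3 and Ephx1) and 1, Ephx1, at 12 weeks, with medians of 0.43 and 0.37 beside 0.01. With 1 library left out 2 to 7 rose at 6 weeks, the fewest without control male 6 weeks replicate 1, and 0 to 2 at 12 weeks. Ephx1, the microsomal epoxide hydrolase, rose by 3.45 ± 0.53 and 2.35 ± 0.49 (adjusted p = 0.00591 and 0.0466). Of the 43 fatty acid and PPAR alpha genes 2 rose at 6 weeks (Acot1 and Plin2) and 2 at 12 weeks (Acot1 and Acot2), with medians of 0.33 and 0.24, and 0 to 3 and 0 to 5 rose with 1 library left out. In this fit, which gives both sexes 1 DN effect, Cyp4a14 and Cyp4a10 did not pass at 6 weeks (adjusted p = 0.625 and 0.267). Pdk1, which restrains pyruvate oxidation, rose by 1.61 ± 0.33 and 1.62 ± 0.32 (adjusted p = 0.0272 and 0.0331) as the 1 called gene of 16 in the glycolysis list at each age. Acot1 lost its call at both ages with replicate pairs as blocks, where its adjusted p was 0.0612 and 0.0511. Within the Slc22a6-led cells Cdkn1a, Sulf2, Gsta1 and Acot1 were no longer called at 6 weeks. Single libraries, left out, ended the calls of Ephx1 at 12 weeks (adjusted p = 0.182) without control female 12 weeks replicate 2, Pdk1 at 6 weeks (adjusted p = 0.123) without DN male 6 weeks replicate 1, and of Pdk1 at 12 weeks (adjusted p = 0.174) without control male 12 weeks replicate 1.

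Lpl, Cndp1 and Fmo5 were among the genes lower in DN mice. Lpl, lipoprotein lipase, stood at 91.7, 245, 423 and 250.2 CPM in control and 35.1, 90.8, 70.1 and 110.3 CPM in DN mice at 6 weeks and at 179.8, 193, 257 and 227 CPM and 38.5, 37.8, 106 and 112 CPM at 12 weeks. The groups overlapped at 6 weeks, where control female replicate 1, with 31 cells, was the lowest control, and not at 12 weeks (-1.68 ± 0.29 and -1.67 ± 0.29, adjusted p = 0.00937 and 0.0126). Cndp1, carnosinase, fell by 1.04 and 1.12 on the log2 scale (adjusted p = 0.00737 and 0.0063). Keg1, a kidney gene of the glycine N-acyltransferase family, was at 959.9, 625, 1356 and 922 CPM in control and 440.2, 316, 479 and 374 CPM in DN mice at 6 weeks (-1.24 ± 0.19, adjusted p = 0.00591), without overlap, and did not pass at 12 weeks (adjusted p = 0.0539). Fabp5, a fatty acid binding protein, fell by 1.30 at 12 weeks (SE 0.19, adjusted p = 0.0063). Fmo5, a flavin-containing monooxygenase, fell at both ages (-1.29 ± 0.19 and -1.09 ± 0.19, adjusted p = 0.00508 and 0.0123), and almost all of its RNA was in males, at 64.5, 64.0, 66.2 and 67.3 CPM in control and 22.8, 24.3, 28.1 and 28.2 CPM in DN males. The lowest p at 6 weeks belonged to 0610031O16Rik, a transcript on the opposite strand over the alcohol dehydrogenase gene Adh7, at -3.81 ± 0.38 and -2.32 ± 0.34 (adjusted p = 1.99e-04 and 0.0063). It was found mainly in control males (9.10 to 19.7 CPM), and without strand its reads cannot be told apart from those of the overlapping gene. Single libraries, left out, ended the calls of Lpl at 12 weeks (adjusted p = 0.0651) without DN female 12 weeks replicate 2, Fmo5 at 12 weeks (adjusted p = 0.102) without DN male 12 weeks replicate 1, and of 0610031O16Rik at 12 weeks (adjusted p = 0.063) without DN male 12 weeks replicate 2.

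**Figure D4:**
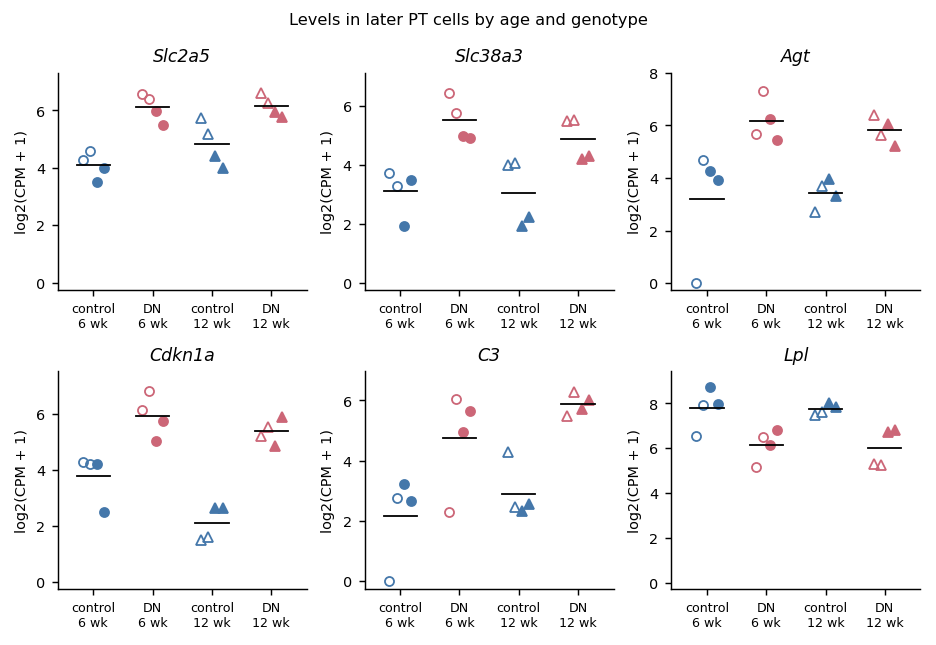
Levels of 6 genes in later PT cells by age and genotype, as log2(CPM + 1) of the summed counts, 1 point per library (open for females, filled for males, circles for 6 weeks, triangles for 12 weeks, blue for control, red for DN) with the mean of each group as a line. DN mice lay above control mice at both ages for Slc2a5, Slc38a3, Agt and Cdkn1a and at 12 weeks for C3, and below them at 12 weeks for Lpl.

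The DN effect at 12 weeks did not pass a test of difference from that at 6 weeks for any gene (0 of 12538, 0%, by edgeR and by DESeq2), while 249 genes had an unadjusted p under 0.05. Cdkn1a stood at a difference of 1.28 ± 0.56 (12 minus 6 weeks) and Slc2a5 at -0.60 ± 0.27, neither past the threshold. A gene called at 1 age only is therefore not shown to differ between the ages. Of 14 endocytic receptors and their partners, 13 mitochondrially encoded genes and 18 genes of dissociation stress, 0 were called at either age. Since only 1.16% of all genes were called at 6 weeks and 0.479% at 12 weeks, 0 calls in lists this short say little about these groups. Lrp2 (megalin), the main protein receptor of the tubule, stood at -0.55 ± 0.27 and -0.58 ± 0.27 (adjusted p = 0.609 and 0.516).

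The DN effect was then compared between later and early PT cells of the same mice, and few genes differed. At 6 weeks 96 of 12538 genes (0.766%) had a DN effect that differed between the cell types, 73 with a higher (0.582%) and 23 with a lower (0.183%) change in later cells, and at 12 weeks 37 (0.295%), 26 higher (0.207%) and 11 lower (0.0877%). Here both cell types were scaled together. The calls at 12 weeks included the red cell genes Hbb-bs and Hba-a1, whose summed level in later PT cells had a median of 1.46 CPM. The part of red cell RNA in this comparison was not tested. Car3, carbonic anhydrase 3, had the lowest p at both ages. In early PT cells it stood at 340.3, 305, 469 and 293 CPM in control males and fell to 11.7, 9.46, 22.1 and 16.5 CPM in DN males, whereas in later PT cells it stood at 9.05, 6.43, 17.6 and 10.6 CPM and 11.3, 25.1, 51.7 and 30.7 CPM. Females had little of it in early PT cells, with at most 10.5 CPM. The difference of the DN effects, later minus early, was 6.05 ± 0.35 at 6 weeks and 5.68 ± 0.29 at 12 weeks (adjusted p = 1.79e-09 and 1.57e-10).

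Ugt3a1, a sugar-conjugating enzyme, showed the same shape at a higher level in later cells. In early PT cells it fell from a range of 97.9 to 144 CPM in control males to 26.0 to 42.3 CPM in DN males and from 44.2 to 118 CPM to 13.7 to 32.3 CPM in females. In later PT cells control and DN mice overlapped in both sexes, at 247 to 389 and 212 to 258 CPM in males. The DN effects differed by 1.65 ± 0.14 and 1.17 ± 0.14 (adjusted p = 5.28e-07 and 1.18e-04). Slc5a10 went the other way: it rose in both cell types, and more in early cells, where control males stood at 14.8 to 33.1 and DN males at 88.3 to 174 CPM, than in later cells, at 99.9 to 151 and 247 to 418 CPM (difference -0.96 ± 0.21 and -1.62 ± 0.21, adjusted p = 0.0291 and 3.00e-04). Gc rose more in later cells, where DN females stood at 72.1 to 261 CPM against 12.7 to 28 CPM in early cells (adjusted p = 2.02e-06 and 1.68e-04). Within the Slc22a6-led cells Gc at both ages and Slc5a10 at 6 weeks were no longer called different, and Car3 and Ugt3a1 still were. Slc5a10 at 6 weeks also lost its call without control female 6 weeks replicate 2 (adjusted p = 0.199). Of the other genes with the lowest p, Abcb1b and the water channel Aqp1 differed at 6 weeks (1.50 ± 0.16 and 1.21 ± 0.15) and the methyltransferase Inmt at 12 weeks (2.34 ± 0.28), all higher in later cells.

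**Figure D5:**
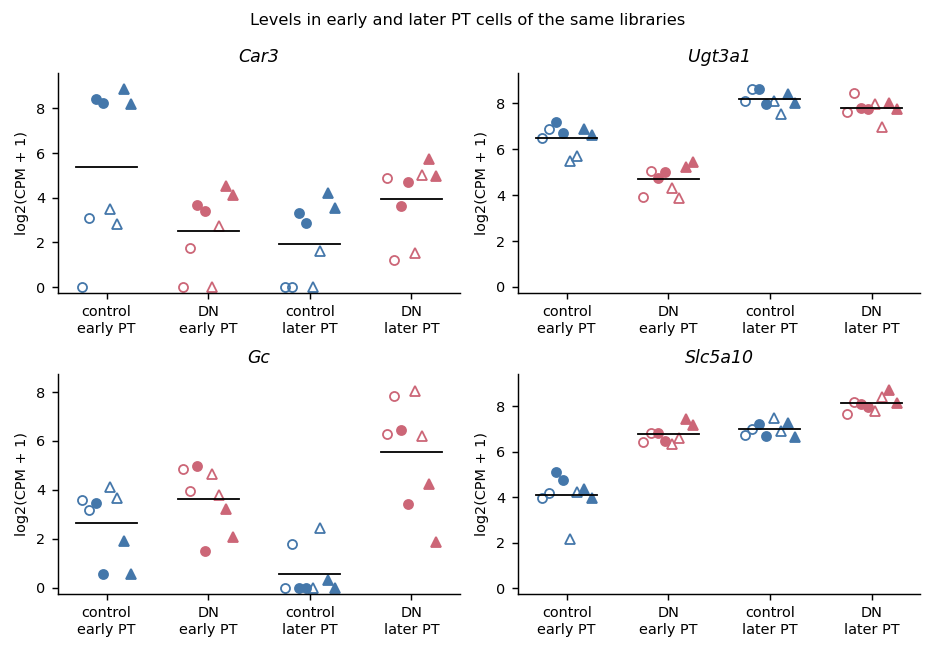
Levels of 4 genes in early and later PT cells of the same libraries, as log2(CPM + 1) of counts scaled together, 1 point per library (open for females, filled for males, circles for 6 weeks, triangles for 12 weeks, blue for control, red for DN) with the mean of each group as a line. Car3 was lower in the early PT cells of DN males and Ugt3a1 in those of both sexes, Slc5a10 was higher in DN mice in both cell types, and Gc reached its highest levels in DN later PT cells.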

How the data were processed

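The authors dissociated both kidneys of each mouse, sequenced 10x 3′ libraries and, per the labels, deposited UMI counts per gene and barcode from Cell Ranger 3.0.2 against mm10, as a raw count matrix per library without normalization. Which reads were counted by strand, and the kit version of each library, are not given in the sources used here. No doublet caller was run here. The later PT cells and the gene lists were chosen with earlier results of these data known, so their counts are descriptions.

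Barcodes with 200 to 7000 genes and at most 50% mitochondrial UMIs were kept, and the counts of the cells selected on the 5 segment genes were summed per library (at least 10 cells). Genes passing edgeR's filterByExpr were tested with edgeR 4.0.16 (R 4.3.3, limma 3.58.1), using TMM factors and the quasi-likelihood test with Benjamini-Hochberg adjustment, an adjusted p under 0.05 being a call. The fits held all 16 libraries and a term for chemistry (the library sets seen in shared barcodes). For DN at each age the other terms were sex within age and genotype within age. For sex they were genotype by age and sex, the latter also split by genotype. For the DN effect in each sex they were sex within age and genotype within sex. Differences are log2 fold changes ± SE, and levels are CPM from the TMM-scaled totals, except the marker sums of other cells, which are from the raw totals. Shares were compared with exact two-sided permutation tests (scipy 1.17.1, Python 3.11.15). Later and early cells were compared in a joint fit. On simulated counts with 100 genes changed at each of 2 sizes, the 6 week comparison recovered 89% of changes of 1 on the log2 scale and 100% of changes of 2 with 6 false calls, and the 12 week comparison 85% and 100% with 11, of 12538 genes. The changed genes were drawn only from those above a set mean level, so recovery of low genes was not measured. All simulated libraries shared 1 mean profile, without sex, chemistry or pair effects, which the real libraries have.

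Library totals, cells and UMIs per library are given in the text and set the precision. Each library is 1 mouse, and p-values measure the spread between these mice. Differences that a fit does not separate add to this spread, such as those of the DN effect between the sexes in the fits by age. Same-numbered mice of an age and sex deviated together, with correlations of 0.393 to 0.662 over 5033 genes, so a fit with these 8 pairs as blocks was run. After the chemistry term, the correlation was -0.357 for the 6 week females and 0.251 for the 12 week females.

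Alternatives were the DESeq2 1.42.0 test and size factors, no filter, no chemistry term, the replicate block, a limit of 20% mitochondrial UMIs, a rule of 8 UMIs and a ratio of 2, cells without UMIs of other tubule markers, shares in barcodes thinned to 1000 UMIs, the 12 larger libraries and each library left out. The fits within 1 sex or 1 genotype and those of Slc22a6-led cells, and the shares over barcodes of at least 1000 UMIs, were chosen after seeing the data. Named genes were called members of the lists, the 10 called genes with the lowest p in each direction for genotype at each age and for sex, and the 5 with the lowest p for differences of DN effects. Also allowed were the segment genes that chose the cells, the markers, and the genes of the lists of other cell types and tissue handling. For every list, the few members with the highest mean CPM or the lowest p were allowed as well. Other named genes are marked as picked after their values were seen, apart from the injury markers Havcr1 and Lcn2. A few genes are not reported here and were left out of the lists.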

Additional observations from a re-analysis of the deposited data

Results flagged for a closer look

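For a part of the named genes, 48 groups of 4 mice of the same sex and genotype were checked for a mouse far from the other 3. In all 8 were found. Chance gives about 1 in 20 for independent groups of like mice, which these were not. Each group held mice of both ages, and all 8 cases were 6 week libraries. Some genes and libraries recur among the cases, so their number cannot be compared with that rate. The 8 are not all the cases of a library that stood apart. Slco1a1 and Prlr in DN male 6 weeks replicate 1, given above, are not among them. Prlr stood at 572 CPM in control female 6 weeks replicate 2, above the other control females. In this check DN male 6 weeks replicate 1 stood apart for 3 genes. Odc1 at 116 CPM and Lpl at 70.1 CPM were below the other DN males and Slc7a12 at 145 CPM above them. Control male 6 weeks replicate 1 was above the other control males for Cdkn1a, at 17.4 CPM, and for Lpl, at 423 CPM. Slc38a3 stood at 10.1 CPM in control male 6 weeks replicate 2 and Lpl at 90.8 CPM in DN female 6 weeks replicate 2, each above the rest of its group.

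The DN effect differed between females and males by a tested log2 difference (female minus male) in 29 named genes. Fatty acid and lipid genes were Cyp4a14 (-7.24), Cyp4a10 (-2.52), Cyp4a31 (-1.14), Hacl1 (-2.31), Acot3 (-2.32), Vnn1 (-1.14), Fabp1 (-5.01), Acaa1b (-1.37), Acaa2 (-1.67), Acsl1 (-1.55), Hao2 (-1.92), Apoe (-3.46), Crot (1.23), Bdh1 (2.24), Acsm3 (5.99) and Agps (2.40). Genes of detoxification and transport were Gsta2 (-3.45), Abcc4 (-3.27), Mgst1 (-1.85), Cbr1 (-2.17), Cyp2d22 (-1.94), Cyp2d26 (-2.80), Abcb1b (-1.69) and Slc22a29 (-4.18). The others were Kynu (-4.51), Prom1 (-2.30), Bhmt (-4.40), Prlr (-5.08) and Odc1 (2.01). With replicate pairs as blocks, the adjusted p of Bdh1 and Apoe rose to 0.0593 and 0.0535. For Fabp1 and Slc22a29, whose levels in control males were near 0, and for Acsm3, whose levels in females were low, the fitted sizes depend on the prior count.

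The DN effect differed between later and early PT cells at 6 weeks by a tested log2 difference (later minus early) for Car3 (6.05), Gc (6.41, from levels near 0 in control later cells), Kap (2.76), Prlr (2.49), Ugt3a1 (1.65), Abcb1b (1.50), Nqo1 (1.39), Aqp1 (1.21), Slc6a6 (0.87), Acot1 (0.84) and Slc5a10 (-0.96). At 12 weeks it differed for Car3 (5.68), Gc (4.28), Inmt (2.34), Cyp4a12a (1.24), Ugt3a1 (1.17), D630023F18Rik (1.07), Cyp4a10 (-1.03) and Slc5a10 (-1.62). Within the Slc22a6-led cells Gc at both ages and Kap, Prlr, Slc5a10, Nqo1, Slc6a6 and Acot1 at 6 weeks were no longer called, nor was Cyp4a10 at 12 weeks.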

How the results depend on the processing

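The counts of called genes moved more than the direction of single genes. Of 173 gene results, 170 kept their direction under every alternative tried, leaving out 1 library kept the call in 2439 fits and lost it in 329, and the other alternatives kept it in 1652 and lost it in 221. The exceptions were Slc7a12 in DN males (-1.67) and at 6 weeks (-2.29) and Scd1 at 6 weeks (-2.07), which reversed within the Slc22a6-led cells without passing.

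Counts that moved by over 1.5 times follow, for DN at 6 weeks, 145 as reported. They were 218 with DESeq2, 569 without a filter, 79 without the chemistry term, 77 at 20% mitochondrial UMIs and 77 in the 12 larger libraries. DN at 12 weeks gave 186 with DESeq2, 704 without a filter, 130 with the replicate block, 30 in the 12 larger libraries and 193 in Slc22a6-led cells. The age difference gave 75 without a filter and 3 in Slc22a6-led cells. The genes called female against male numbered 1484 without the chemistry term, 1376 with the replicate block, 1489 at 20% mitochondrial UMIs and 1356 in cells without UMIs of other tubule markers.

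The sex difference of the DN effect gave 184 with DESeq2, 355 without a filter, 51 without the chemistry term, 177 with the replicate block, 51 at 20% mitochondrial UMIs and 31 in the 12 larger libraries. DN in females gave 197, 498, 62, 203, 12 and 21 under the same alternatives in that order, 63 under the stricter rule, where 14 libraries had enough cells, and 42 in Slc22a6-led cells. DN in males gave 1038 without a filter, 859 with the replicate block and 329 at 20% mitochondrial UMIs. The genes called female against male, control, numbered 1010 without the chemistry term, 1079 at 20% mitochondrial UMIs and 1121 without other tubule markers. Sex in DN mice gave 679 with DESeq2, 906 without a filter, 152 without the chemistry term, 136 at 20% mitochondrial UMIs, 239 without other tubule markers and 192 in the 12 larger libraries. Later against early cells gave 49 and 24 with DESeq2 at 6 and 12 weeks, 336 and 248 without a filter, 36 and 12 at 20% mitochondrial UMIs, and 59 at 12 weeks without other tubule markers.

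With 1 library left out, calls ranged from 40 to 148 for DN at 6 weeks, 22 to 187 at 12 weeks, 0 to 2 for the age difference, 1249 to 2803 for sex, 47 to 99 for the sex difference of the DN effect, 8 to 151 for DN in females, 364 to 527 in males, 732 to 2018 for sex in control and 101 to 420 in DN mice, and 50 to 121 and 20 to 64 for later against early cells at 6 and 12 weeks. The lowest counts for sex, sex in control mice, the sex difference of the DN effect and DN in females came without control female 6 weeks replicate 2, that for sex in DN mice without DN female 12 weeks replicate 2, those for later against early cells without DN male 6 weeks replicate 1 and control male 12 weeks replicate 1. The DN minus control share of kept barcodes ranged from 2.84 to 5.62 percentage points, was 5.92 in the 12 larger libraries (exact permutation p = 0.0130) and stayed 4.48 with the replicate block (exact permutation p = 0.0156). It was 0.105 with cells thinned to 1000 UMIs (exact permutation p = 0.797). The share among PT cells ranged from -1.31, without control female 6 weeks replicate 1, to 3.78, and was -6.24 with cells thinned to 1000 UMIs (exact permutation p = 0.594) and -1.66 in the 12 larger libraries (exact permutation p = 0.725). The cause of these shifts was not tested. The replicate 1 females held 31 to 120 cells each.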
